A study of Homo sapiens with 27 samples.

Results

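Calcineurin is a phosphatase that calcium and calmodulin switch on. It removes phosphates from the NFAT transcription factors, which then enter the nucleus, while the RCAN proteins bind calcineurin and restrain it, and class IIa histone deacetylases such as HDAC9 hold back the MEF2 factors that calcium signals release. The genes described here are the 10 of 60534 gene identifiers common to all libraries that carry the symbols RCAN1, RCAN2, PPP3CA, PPP3CB, NFATC1, NFATC2, NFATC3, NFATC4, HDAC9 and NR4A1. They were picked by symbol, with earlier results of these data known, so their calls may not be independent of that choice. RCAN1 and HDAC9 were on the list because their counts were high in thapsigargin-treated cells, so for these genes every value of thapsigargin against cycling cells is a description with no test.

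The genes were followed in IMR90, a fibroblast line from normal human fetal lung, by RNA-seq (13 libraries) and by ribosome profiling (Ribo-seq, 14 libraries), which counts the mRNA fragments that ribosomes shield from RNase. Cycling cells (2 RNA-seq and 3 Ribo-seq libraries) were taken at 40 to 60% confluency with no treatment, and quiescent cells (3 and 3) had stopped dividing by contact inhibition. Cells made senescent by radiation (3 and 3) were harvested 10 days after 15 Gy, and cells made senescent by etoposide (3 and 3), a poison of topoisomerase II that breaks DNA, had 3 treatments at 50 µM over 10 days. Thapsigargin (2 and 2) was given to cycling cells at 25 nM for 3 h. It blocks the pump that fills the calcium store of the endoplasmic reticulum, so calcium leaves that store, enters the cytosol, and protein folding in the store is disturbed.

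The labels of the cycling, quiescent and senescent libraries give the genotype WT, and those of thapsigargin give none. All states come from a single cell line, the labels name no separate cultures, and p-values therefore measure the spread between these libraries, which may be technical. The medium of the thapsigargin cells was described without the antibiotic and antimycotic of the others, so thapsigargin and this difference cannot be told apart. In bulk libraries fewer cells that express a gene and less RNA per cell cannot be told apart either.

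RCAN1 has several start sites, and the shorter transcripts that begin inside the gene are known in other cells as an NFAT-driven form. The 250 bases before each annotated start of a gene were therefore read from RefSeq (GRCh38.p14) for the 8 genes that had an entry, and the core of the NFAT site (GGAAA), the cAMP response element (TGACGTCA) and the amino acid response element of ATF4 (TGATGCAA) were searched on both strands. The 5 windows below were chosen after the matches were seen: the outermost start and the start with most matches for RCAN1, the outermost start and an inner start for HDAC9, and the start of NFATC2 that holds matches. Each is printed 5′ to 3′ in the direction of its gene, and capitals mark the matches on either strand, so that TTTCC is GGAAA on the other strand.
RCAN1 outermost start, minus strand, chr21:34615114-34615363: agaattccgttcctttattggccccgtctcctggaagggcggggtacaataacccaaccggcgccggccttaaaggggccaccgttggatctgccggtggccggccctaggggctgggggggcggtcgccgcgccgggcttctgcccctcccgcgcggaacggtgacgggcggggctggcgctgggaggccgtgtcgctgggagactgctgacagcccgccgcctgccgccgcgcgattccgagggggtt
RCAN1 inner start, minus strand, chr21:34526823-34527072: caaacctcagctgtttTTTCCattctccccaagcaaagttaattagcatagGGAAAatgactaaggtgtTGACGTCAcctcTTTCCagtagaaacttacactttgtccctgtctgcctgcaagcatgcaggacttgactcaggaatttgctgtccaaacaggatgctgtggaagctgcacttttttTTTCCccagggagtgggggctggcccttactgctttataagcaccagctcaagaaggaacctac
HDAC9 outermost start, plus strand, chr7:18086575-18086824: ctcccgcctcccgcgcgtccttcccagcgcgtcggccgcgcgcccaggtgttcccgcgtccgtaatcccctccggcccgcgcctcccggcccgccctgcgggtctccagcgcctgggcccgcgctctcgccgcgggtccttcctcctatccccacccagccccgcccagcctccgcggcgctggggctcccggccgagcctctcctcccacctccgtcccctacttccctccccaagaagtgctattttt
HDAC9 inner start, plus strand, chr7:18495460-18495709: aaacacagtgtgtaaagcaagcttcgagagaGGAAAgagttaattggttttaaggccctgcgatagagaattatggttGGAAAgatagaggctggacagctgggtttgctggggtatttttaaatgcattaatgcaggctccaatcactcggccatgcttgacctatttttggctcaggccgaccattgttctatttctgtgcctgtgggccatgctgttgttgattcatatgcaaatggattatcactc
NFATC2 outermost start, minus strand, chr20:51562840-51563089: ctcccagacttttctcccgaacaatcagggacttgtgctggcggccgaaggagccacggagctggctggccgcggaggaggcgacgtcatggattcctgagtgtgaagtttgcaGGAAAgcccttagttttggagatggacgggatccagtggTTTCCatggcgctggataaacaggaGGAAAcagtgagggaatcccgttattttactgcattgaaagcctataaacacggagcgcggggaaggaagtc

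The inner RCAN1 window holds 4 NFAT cores and 1 cAMP response element, and the other 5 of the 6 RCAN1 windows hold none of these letters. Among 35116 RefSeq windows of 250 bases, 55.6% had at least 1 NFAT core, 7.12% at least 3 and 1.87% at least 4, and 1.65% had a cAMP response element. HDAC9 has 5 annotated starts, of which 4 had a core, with 3 at most in a window. Its windows chr7:18495460-18495709 and chr7:18495499-18495748 overlap and share 1 core, so their matches are not separate. The outermost HDAC9 window had none, the inner one printed here had 2, and the NFATC2 window had 3. The amino acid response element was in 0.772% of all windows and in none of the members' windows. These matches describe letters only. The counts are per gene, so they do not tell which start was used in any state.

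Total gene counts were between 20.64 and 57.12 (1e6) in RNA-seq and between 1.937 and 20 (1e6) in Ribo-seq, where thapsigargin had the lowest, 1.937 and 2.045. Levels are given as CPM, counts per 1e6 after scaling between libraries by TMM. They are not divided by transcript length, so genes are not ranked against each other. In thapsigargin RNA-seq 1.35 and 1.399% of reads were unmapped against 27.85 to 40.65% in the other RNA-seq libraries. In thapsigargin Ribo-seq 65.18 and 66.93% of reads mapped to several places, against 19.82 to 31.91% in the other Ribo-seq libraries. Of their uniquely mapped reads 12.75 and 11.44% lay in no gene on the counted strand, against 1.445 to 2.927%. What these differences do to the members was not tested, and they cannot be told apart from thapsigargin. The 8 fibroblast markers summed to between 8890 and 14400 CPM in RNA-seq, with every marker above 1 CPM on average in each state, and endothelial, epithelial, leukocyte and striated muscle lists never summed to more than 8.33 CPM in a library. In footprints the fibroblast sum was 12400 and 13000 CPM under thapsigargin and 35600 to 37300 CPM in cycling cells. DDIT3, a stress gene of the endoplasmic reticulum, was at 40.7 CPM of RNA in cycling and 440 CPM in thapsigargin cells.

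RCAN1 (chr21:34516442-34615113) encodes the calcineurin inhibitor also called regulator of calcineurin 1. Its RNA stood at 97.7 and 77.9 CPM in the cycling libraries and at 99.1, 90.3 and 110 CPM in the quiescent ones. After radiation it was at 139, 161 and 173 CPM and after etoposide at 294, 269 and 216 CPM. In thapsigargin cells it was at 1220 and 992 CPM. Cycling and quiescent libraries overlapped, whereas the irradiated, the etoposide and the thapsigargin libraries each lay above all libraries of the states before them in that order.

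Footprints on RCAN1 followed the same order. Cycling libraries had 10.5, 7.08 and 10.1 CPM and quiescent libraries 10.2, 11.1 and 13.2 CPM. Irradiated libraries had 15.8, 15.1 and 18.9 CPM and etoposide libraries 31.4, 27.6 and 23.8 CPM. The thapsigargin libraries, at 299 and 323 CPM, were an order of magnitude above every other library. The mean under thapsigargin was 12.5 times the cycling mean in RNA and 33.8 times in footprints, and by log2 fold change RCAN1 stood 53 of 13220 genes in RNA and 10 of 11683 in footprints. The fitted log2 fold changes, described and not tested, were 3.65 ± 0.19 (SE) in RNA and 5.09 ± 0.19 in footprints.

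**Figure D1:**
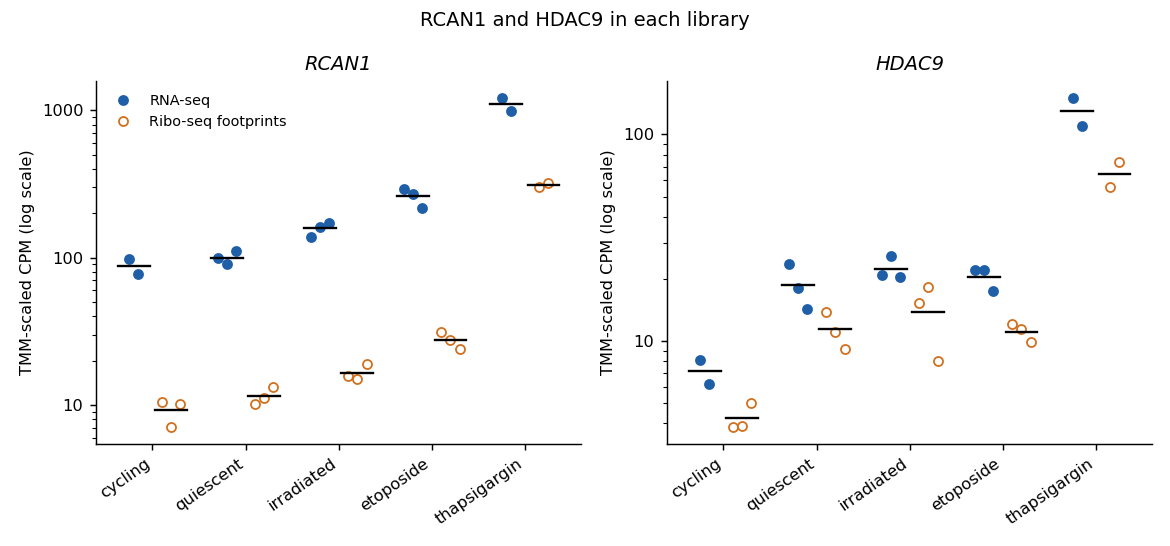
RCAN1 (left) and HDAC9 (right) in each library, as TMM-scaled CPM on a log axis, by state. Filled blue points are RNA-seq libraries, open orange points Ribo-seq libraries and black bars the means. RCAN1 is stepwise higher from irradiated to etoposide to thapsigargin libraries, whereas HDAC9 in quiescent, irradiated and etoposide libraries forms 1 level between cycling and thapsigargin.

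RCAN1 rose in both senescent states. A gene was called changed at a Benjamini-Hochberg adjusted p under 0.05 over all genes of the assay in edgeR's quasi-likelihood test. RNA rose after radiation by 0.84 ± 0.17 (log2 fold change ± SE, edgeR adjusted p = 0.001426) and after etoposide by 1.56 ± 0.17 (edgeR adjusted p = 1.146e-05). Footprints rose by 0.86 ± 0.18 (edgeR adjusted p = 0.002092) and by 1.60 ± 0.17 (edgeR adjusted p = 8.379e-06). These comparisons share the cycling libraries with the contrast that chose the gene.

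The comparisons that do not use the cycling libraries also called RCAN1. The mean of both senescent states was above quiescence by 1.02 ± 0.13 in RNA (edgeR adjusted p = 6.626e-05) and 0.90 ± 0.15 in footprints (edgeR adjusted p = 0.0005688). Irradiated cells had less RCAN1 than etoposide cells, by −0.72 ± 0.14 in RNA (edgeR adjusted p = 0.003084) and −0.73 ± 0.18 in footprints (edgeR adjusted p = 0.009585). The footprint difference between irradiated and etoposide cells lost its call without the first irradiated Ribo-seq library (edgeR adjusted p = 0.05089) or without the first etoposide Ribo-seq library (edgeR adjusted p = 0.05039). Quiescence did not pass the test against cycling, with 0.19 ± 0.16 in RNA and 0.33 ± 0.17 in footprints.

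RCAN2 (chr6:46220736-46491970), a related calcineurin inhibitor, rose in both kinds of senescence and not called under thapsigargin. Its RNA was at 4.24 and 3.07 CPM in cycling libraries, 4.87, 4.31 and 4.53 CPM in quiescent ones, 7.68, 6.66 and 7.01 CPM after radiation and 8.13, 8.19 and 7.68 CPM after etoposide. Under thapsigargin it was at 4.13 and 4.31 CPM, inside or just above the cycling range and below every senescent library. RNA rose by 0.95 ± 0.18 after radiation (edgeR adjusted p = 0.001268) and by 1.12 ± 0.18 after etoposide (edgeR adjusted p = 0.0003703). Against quiescence the senescent mean was higher by 0.72 ± 0.14 (edgeR adjusted p = 0.001467).

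RCAN2 footprints also rose against cycling in both kinds of senescence. They went from 7.06, 7.37 and 5.67 CPM in cycling libraries to 11.4, 11.4 and 15.7 CPM after radiation and 14.7, 10.9 and 13.2 CPM after etoposide, with quiescent libraries at 11.7, 8.33 and 6.77 CPM. The rises were 0.93 ± 0.25 (edgeR adjusted p = 0.008923) and 0.94 ± 0.24 (edgeR adjusted p = 0.007986). Against quiescence the senescent mean did not pass, at 0.53 ± 0.20 (edgeR adjusted p = 0.0732), and quiescent library 1 lay above several senescent ones. Under thapsigargin RCAN2 footprints were at 6.55 and 5.75 CPM, and the log2 difference from cycling was −0.13 with a 95% interval from −0.89 to 0.63. For RNA that interval was −0.22 to 0.62.

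PPP3CA (chr4:101023418-101347526) and PPP3CB (chr10:73436433-73496024) encode the α and β catalytic subunits of calcineurin. PPP3CA RNA was at 92 and 81.8 CPM in cycling libraries and at 126 and 111 CPM under thapsigargin, with no overlap, and all quiescent and senescent libraries lay between 78.6 and 94.2 CPM. It rose under thapsigargin by 0.45 ± 0.12 (edgeR adjusted p = 0.01348). It was no longer called without the second cycling RNA-seq library (edgeR adjusted p = 0.1363), without the first thapsigargin RNA-seq library (edgeR adjusted p = 0.06512) and in a fit of only these states (edgeR adjusted p = 0.1002). Footprints on PPP3CA were at 114 and 178 CPM under thapsigargin, around the cycling values of 124, 135 and 126 CPM, and were not called.

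PPP3CB passed no test in any comparison. Its RNA ranged from 62.3 to 110 CPM and its footprints from 82.1 to 120 CPM over all libraries. The log2 differences of thapsigargin from cycling were 0.06 in RNA (95% interval −0.39 to 0.51) and 0.01 in footprints (−0.31 to 0.32).

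The NFAT factors did not move together. NFATC1 (chr18:79395930-79529323) rose after radiation. Its RNA went from 3.84 and 4.11 CPM in cycling to 8.44, 6.94 and 7.6 CPM in irradiated libraries, which was 0.95 ± 0.21 (edgeR adjusted p = 0.003372). Its footprints went from 6.75, 7.08 and 6.52 CPM to 11.8, 13.6 and 11.7 CPM, a rise of 0.86 ± 0.19 (edgeR adjusted p = 0.002634). Every quiescent and etoposide library also lay above every cycling library, at 4.69 to 6.22 CPM of RNA and 8.73 to 9.9 CPM of footprints, without passing the test. With DESeq2 the footprints passed in quiescence (0.45, adjusted p = 0.03147) and after etoposide (0.48, adjusted p = 0.03299). After etoposide they also passed in a fit of only these states (0.45, edgeR adjusted p = 0.04041). Most other alternatives did not call these footprints, and none called the RNA.

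NFATC1 RNA was higher in irradiated than in etoposide cells by 0.54 ± 0.18 (edgeR adjusted p = 0.04429). This call was lost without any 1 of the 3 irradiated or of the first and second etoposide RNA-seq libraries (edgeR adjusted p from 0.06345 to 0.1698), and also without either cycling library or the second quiescent one (edgeR adjusted p from 0.05235 to 0.0596). The call was also lost with another scaling between libraries (edgeR adjusted p = 0.05654), with no low-count filter (edgeR adjusted p = 0.06927) and with a block for replicate number (edgeR adjusted p = 0.0638). Under thapsigargin NFATC1 was at 2.95 and 4.05 CPM in RNA and 6 and 8.89 CPM in footprints, with no call in either.

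NFATC2 (chr20:51386963-51562839) is the NFAT whose RNA was higher under thapsigargin. It was scarce in all other states: 0.914 and 0.988 CPM in cycling libraries and between 0.3 and 1.32 CPM in the 9 quiescent and senescent ones. Under thapsigargin it was at 6.37 and 6.84 CPM, or 261 and 389 counts, and no other library overlapped these. The mean was 6.95 times that of cycling cells, and on the log2 scale RNA rose by 2.80 ± 0.48 (edgeR adjusted p = 0.001049). This stood 118 of 13220 genes in RNA.

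Footprints on NFATC2 were too few to be tested. The thapsigargin libraries had 0 and 15 counts, and the 0 allows up to 1.64 CPM (3 counts), which is above the cycling values of 1.04, 1.01 and 0.749 CPM. The other library was at 7.84 CPM. The replicates thus differed, and whether footprints changed as the RNA did could not be told at this depth. Of all Ribo-seq counts on the gene 20.3% lay on the strand that was not counted.

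NFATC3 (chr16:68085370-68229259) was not called in any comparison. Its RNA ranged from 35 to 56.2 CPM and its footprints from 22 to 46.4 CPM. Footprints were at 46.4 and 31.4 CPM under thapsigargin against 31.1, 30.6 and 27.6 CPM in cycling cells, a log2 difference of 0.38 ± 0.18 (edgeR adjusted p = 0.09247), and passed only without the second thapsigargin Ribo-seq library (0.65, edgeR adjusted p = 0.006589). After etoposide NFATC3 footprints were at 23.9, 22 and 22.2 CPM, below every cycling library, with −0.39 ± 0.15 (edgeR adjusted p = 0.05844). With a block for replicate number these footprints passed (edgeR adjusted p = 0.0432). They passed with DESeq2 (adjusted p = 0.02437), in a fit of only these states (edgeR adjusted p = 0.01188) and without thapsigargin Ribo-seq library 1 (edgeR adjusted p = 0.01444) or 2 (edgeR adjusted p = 0.01409).

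NFATC4 (chr14:24366911-24379604) was the NFAT with less RNA under thapsigargin. RNA was at 44 and 60.5 CPM in cycling libraries and at 25.8 and 28.2 CPM under thapsigargin, below every other library of the study. The change was −0.95 ± 0.21 (edgeR adjusted p = 0.005894). It lost its call without the second cycling RNA-seq library (−0.71, edgeR adjusted p = 0.07881). Footprints did not follow: they were at 32.2 and 25.6 CPM against 24.9, 26.7 and 30.5 CPM, a difference of 0.08 with a 95% interval from −0.35 to 0.51.

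By its means NFATC4 was highest in quiescent and lowest in etoposide cells among the arrested states, and quiescent and irradiated libraries overlapped in both assays. Footprints were at 40.1, 38.8 and 49.2 CPM in quiescent, 36.9, 30.3 and 44.6 CPM in irradiated and 24.9, 22.8 and 24.2 CPM in etoposide libraries. They were above cycling in quiescence by 0.64 ± 0.16 (edgeR adjusted p = 0.01035) and after radiation by 0.45 ± 0.16 (edgeR adjusted p = 0.04092). The etoposide libraries lay at or below the lowest cycling value and did not pass.

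NFATC4 RNA was at 80.4, 74.9 and 50.6 CPM in quiescent, 64.7, 60.5 and 58.2 CPM in irradiated and 41.4, 36.5 and 47.5 CPM in etoposide libraries. The senescent mean was below quiescence by −0.44 ± 0.15 in RNA (edgeR adjusted p = 0.03213) and −0.51 ± 0.13 in footprints (edgeR adjusted p = 0.01273). Irradiated cells were above etoposide cells by 0.55 ± 0.17 in RNA (edgeR adjusted p = 0.03522) and 0.64 ± 0.17 in footprints (edgeR adjusted p = 0.01412). The call of quiescent footprints held without each library in turn, and the other calls of NFATC4 in arrested cells did not. The RNA difference from quiescence was lost without quiescent library 1 or 2, irradiated library 2 or 3 or etoposide library 1 or 2 (edgeR adjusted p up to 0.1685). The RNA difference between senescent states was lost without any irradiated library or etoposide library 1 or 2 (up to 0.1558). In footprints the difference from quiescence was lost without quiescent library 3 (edgeR adjusted p = 0.05793), and that between senescent states without irradiated library 3 (edgeR adjusted p = 0.06607) or etoposide library 2 (edgeR adjusted p = 0.05851). The footprint rise after radiation was lost without cycling library 1 or 2, irradiated library 1 or 3 or etoposide library 2 or 3 (up to 0.1577).

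HDAC9 (chr7:18086825-19002416) encodes a class IIa histone deacetylase, which binds MEF2 factors and represses their targets until kinases driven by calcium send it out of the nucleus. Its RNA was at 8.12 and 6.19 CPM in cycling libraries. Quiescent libraries had 23.5, 18.1 and 14.3 CPM, irradiated ones 20.8, 25.8 and 20.4 CPM and etoposide ones 22.2, 22 and 17.4 CPM. Thapsigargin libraries had 151 and 110 CPM. Unlike RCAN1, HDAC9 thus had 1 level in the 3 arrested states, whose libraries overlapped, above all cycling and below all thapsigargin libraries.

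Footprints on HDAC9 were at 3.84, 3.9 and 5.03 CPM in cycling, 13.9, 11.1 and 9.13 CPM in quiescent, 15.3, 18.2 and 8.01 CPM in irradiated and 12.1, 11.4 and 9.9 CPM in etoposide libraries. In thapsigargin libraries they were at 55.7 and 73.7 CPM. Again the 3 arrested states overlapped each other and no cycling or thapsigargin library reached them. The thapsigargin mean was 18.2 times the cycling mean in RNA and 15.2 times in footprints, and HDAC9 stood 36 of 13220 genes in RNA and 25 of 11683 in footprints. The log2 fold changes, described and not tested, were 4.18 ± 0.27 and 3.93 ± 0.30.

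HDAC9 passed the test in all 3 arrested states against cycling. RNA rose by 1.37 ± 0.23 in quiescence (edgeR adjusted p = 0.002074), 1.63 ± 0.24 after radiation (edgeR adjusted p = 0.0001363) and 1.51 ± 0.23 after etoposide (edgeR adjusted p = 0.0002397). Footprints rose by 1.42 ± 0.26 (edgeR adjusted p = 0.00226), 1.70 ± 0.28 (edgeR adjusted p = 0.0003837) and 1.39 ± 0.28 (edgeR adjusted p = 0.00157). These 3 comparisons share the cycling libraries with each other and with the contrast that chose the gene. Senescence against quiescence was 0.20 ± 0.17 in RNA and 0.12 ± 0.22 in footprints, and irradiated against etoposide cells 0.12 ± 0.19 and 0.30 ± 0.27, with no call. On the strand that was not counted lay 3.9 and 4.03% of HDAC9 counts in the cycling RNA-seq libraries and 0.448% over all RNA-seq libraries.

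NR4A1 (chr12:52022832-52059503) encodes an orphan nuclear receptor of the immediate early kind, induced within minutes to hours by calcium and growth signals. Cycling RNA-seq libraries differed, at 4.83 and 14.1 CPM, and thapsigargin libraries had 28.9 and 57.2 CPM, above every other library. RNA rose by 2.20 ± 0.58 (edgeR adjusted p = 0.01477). The call was lost without the first cycling library (1.61, edgeR adjusted p = 0.1373) or without the second thapsigargin library (1.65, edgeR adjusted p = 0.08613). Footprints under thapsigargin, at 13.1 and 35 CPM, overlapped the cycling values of 3.74, 13.1 and 1.5 CPM and were not called, with 1.93 ± 0.87 (edgeR adjusted p = 0.08565).

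In the arrested states NR4A1 varied between replicates, most of all after etoposide. RNA was at 2.77, 2.57 and 3.47 CPM in quiescent, 4.64, 2.63 and 5.75 CPM in irradiated and 10.6, 3.58 and 14.2 CPM in etoposide libraries. Quiescent RNA lay below both cycling libraries, by −1.67 ± 0.55 (edgeR adjusted p = 0.05553), and did not pass in this fit. It passed with DESeq2 (adjusted p = 0.0473), with a block for replicate number (edgeR adjusted p = 0.04046) and in a fit of only these states (edgeR adjusted p = 0.04863). Footprints were at 1.19, 1.85 and 4.77 CPM in quiescent, 4.22, 2.65 and 9.72 CPM in irradiated and 23, 4.37 and 20.7 CPM in etoposide libraries. Their senescent mean was above quiescence by 1.85 ± 0.72 (edgeR adjusted p = 0.07639) and passed with DESeq2 (adjusted p = 0.0208).

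**Figure D2:**
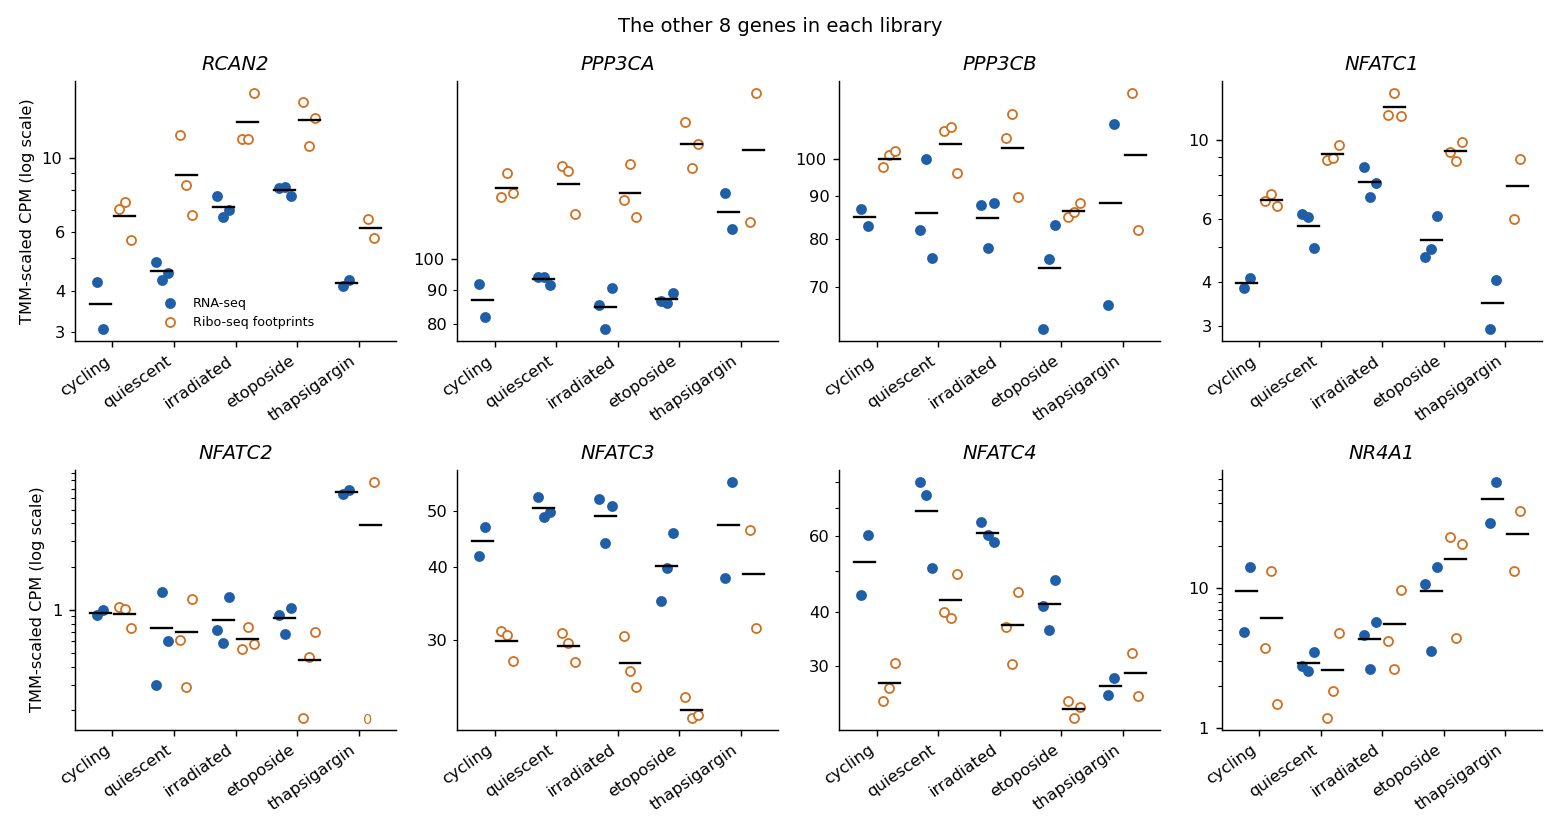
The other 8 genes in each library, as TMM-scaled CPM on log axes with a separate scale for each gene. Filled blue points are RNA-seq, open orange points Ribo-seq, black bars means, and a printed 0 marks a library with no count (NFATC2, Ribo-seq, thapsigargin 1). NFATC2 and NR4A1 RNA are highest and NFATC4 RNA lowest under thapsigargin, RCAN2 is highest in the senescent states, and PPP3CB stays between 62.3 and 120 CPM.

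Counted over the genes, RNA of all 10 could be tested and footprints of 9. Against cycling, 1 of 10 was called in quiescence, 4 after radiation and 3 after etoposide in RNA, all higher, where 15.6, 34.9 and 34.6% of all 13220 genes were called and 5.21, 16.1 and 16.8% were higher. In footprints it was 2, 5 and 3 of 9, all higher, where 21.7, 39.8 and 34.2% of 11683 genes were called and 7.11, 17.3 and 16.5% were higher. As shares of the members these are 10, 40 and 30% in RNA and 22.2, 55.6 and 33.3% in footprints. These counts include RCAN1 and HDAC9, which were chosen on the same cycling libraries. Without them 2 of 8 genes were called after radiation and 1 of 8 after etoposide in RNA, and 1, 3 and 1 of 7 in footprints in quiescence, after radiation and after etoposide. HDAC9 was the only RNA call in quiescence by edgeR. DESeq2 called 2 of the 10 there, and 3 of the 10 had an unadjusted p under 0.05. The members' median log2 fold changes were 0.19, 0.19 and 0.01 in RNA, where the medians of all genes were 0.02, 0.03 and 0.00.

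Under thapsigargin 4 of the 8 genes other than RCAN1 and HDAC9 were called in RNA, 3 higher (NFATC2, NR4A1 and PPP3CA) and 1 lower (NFATC4), where 24.6% of all genes were called, 11.8% higher and 12.8% lower. In footprints none of the 7 tested genes was called by edgeR, where 44.4% of all genes were called, 20.1% higher and 24.4% lower. At an unadjusted p under 0.05 there were 2, and DESeq2 called 1. Senescence against quiescence called 3 of 10 genes in RNA (2 higher, 1 lower), where 34.2% of all genes were called, 16.6% higher and 17.6% lower. It called 2 of 9 in footprints (1 higher, 1 lower), where 26.1% of all genes were called, 12.4% higher and 13.7% lower. Irradiated against etoposide cells differed in 3 of 10 genes in RNA (2 higher, 1 lower), where 22.5% of all genes were called, 9.67% higher and 12.9% lower. In footprints they differed in 2 of 9 (1 higher, 1 lower), where 21.7% of all genes were called, 7.78% higher and 13.9% lower.

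**Figure D3:**
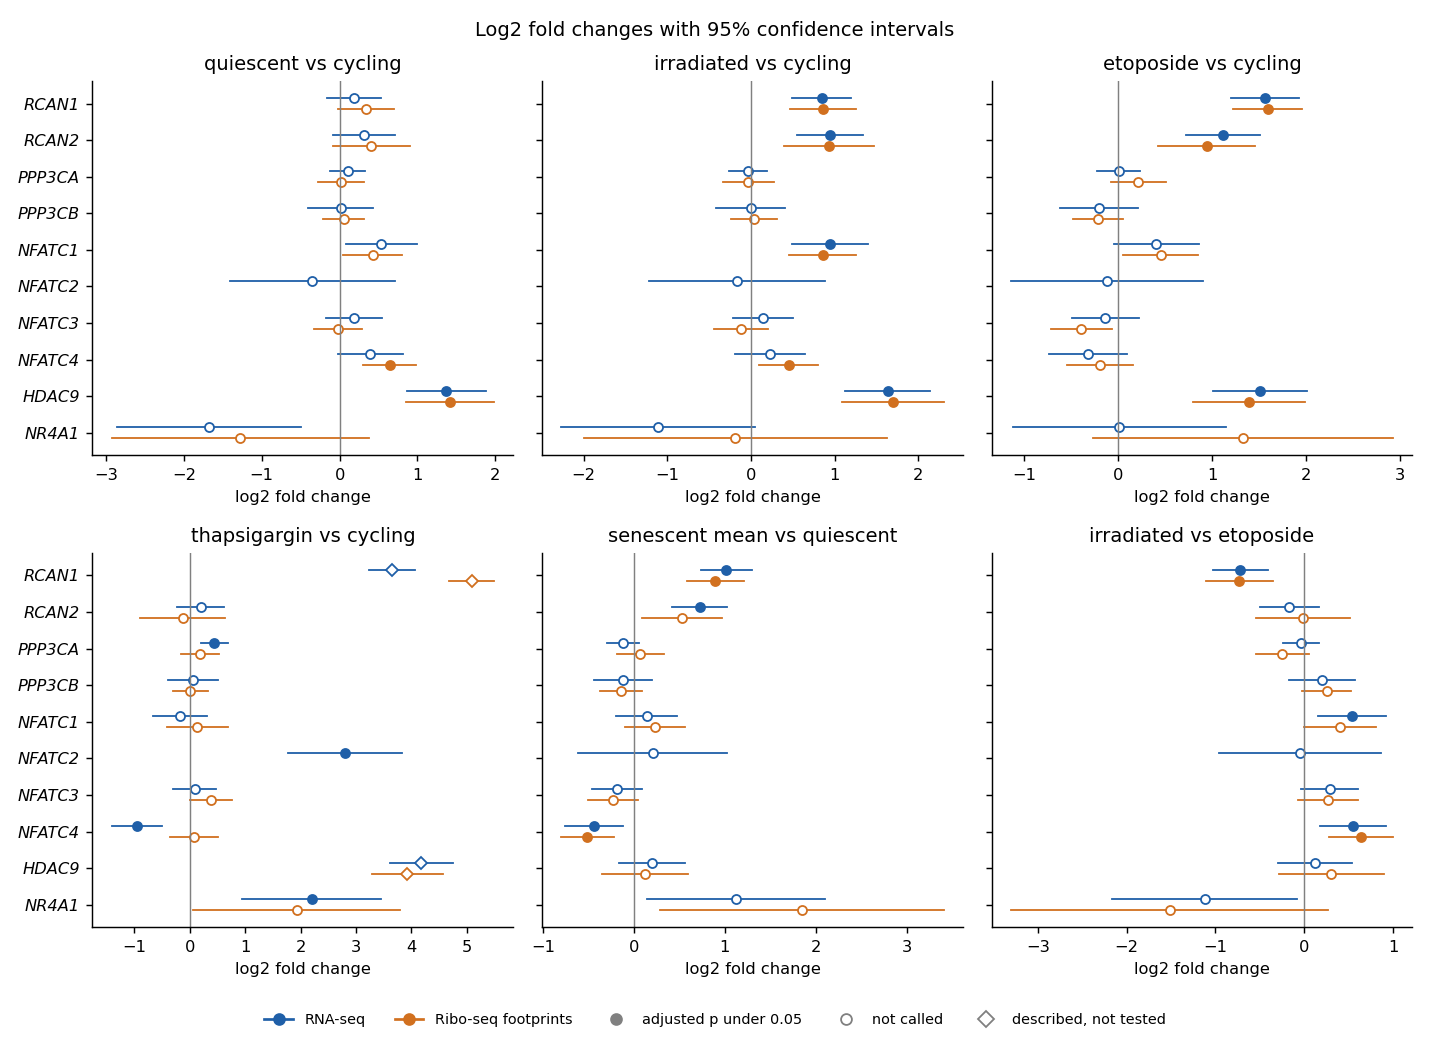
Log2 fold changes of the 10 genes in 6 comparisons, with 95% confidence intervals, each panel with its own horizontal scale. Blue is RNA-seq and orange Ribo-seq, filled points passed an adjusted p of 0.05, and open diamonds (RCAN1 and HDAC9 under thapsigargin) are described and not tested. RCAN1 and RCAN2 are filled in both senescent states and not in quiescence, whereas HDAC9 is filled in all 3.

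Translational efficiency (TE) is the ratio of footprints to RNA of a gene. The ratio of mean CPM for RCAN1 was 0.105 in cycling, 0.115 in quiescent, 0.105 in irradiated and 0.106 in etoposide cells, and 0.283 under thapsigargin. Its log2 TE change was 1.46 ± 0.25 under thapsigargin, described and not tested, which stood 376 of 11636 genes. For HDAC9 the ratios were 0.595, 0.613, 0.619, 0.541 and 0.498 in the same order, and the TE change under thapsigargin was −0.23 ± 0.40, at rank 6569. For RCAN1 the ratio was thus near 0.105 in cycling, irradiated and etoposide cells while its RNA differed, and thapsigargin was the state with another ratio. No test compared the genes with each other.

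NFATC4 was the member whose TE passed the test. Its ratio was 0.524 in cycling and 1.07 under thapsigargin, with a TE change of 1.05 ± 0.31 (edgeR adjusted p = 0.01751). The call was lost without the second cycling RNA-seq library (0.76, edgeR adjusted p = 0.1108), without the first thapsigargin Ribo-seq library (0.81, edgeR adjusted p = 0.1224) and in a fit of only these states (0.97, edgeR adjusted p = 0.08763). It was 1 of 7 tested members other than RCAN1 and HDAC9, where 20.8% of all genes were called in TE and 9.21% were higher. In the other 5 comparisons 0 of 9 members were called in TE by edgeR or by DESeq2, none had an unadjusted p under 0.05, where 0% of all genes were called in quiescence, 0.0172% after radiation, 0.043% after etoposide, 0.043% in senescence against quiescence and 0% between irradiated and etoposide cells. At an unadjusted p under 0.05 there were 368 genes in the first and 614 in the last of these.

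The footprints of thapsigargin and of the other states were counted on gene lists that differ (62703 and 60664 identifiers), and every TE value outside thapsigargin also joins both lists. A gene whose boundaries changed between them could get a different count from the same reads, and this was not tested. The median TE change of all genes under thapsigargin was −0.10.

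**Figure D4:**
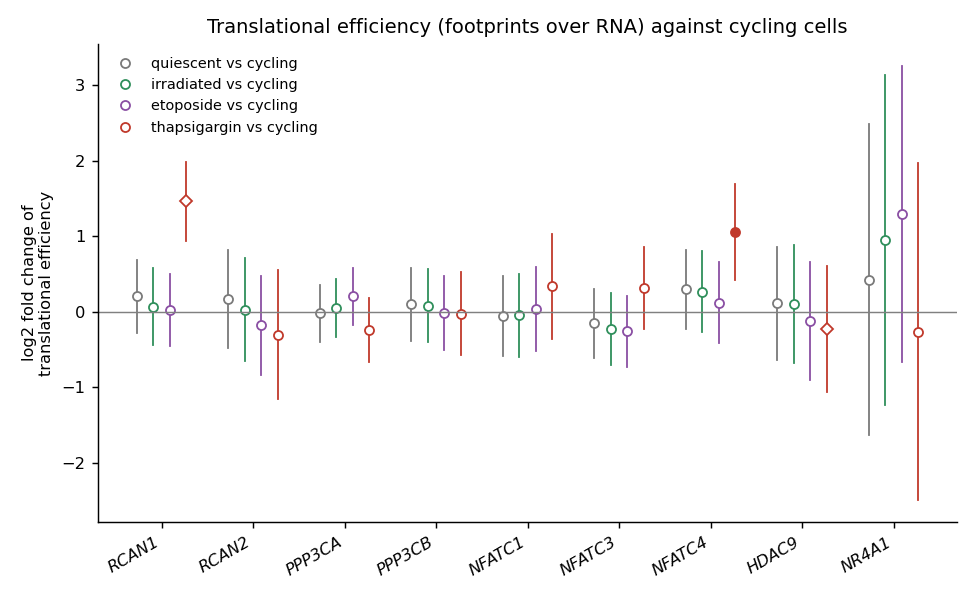
Log2 change of translational efficiency against cycling cells for the 9 genes tested, with 95% confidence intervals. Grey is quiescent, green irradiated, purple etoposide and red thapsigargin, a filled point passed an adjusted p of 0.05, and diamonds are described and not tested. NFATC4 under thapsigargin is filled, and RCAN1 under thapsigargin lies at 1.46 with HDAC9 at −0.23.

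The rest of the pathway was followed in 70 further genes, of which 62 could be tested in RNA and 59 in footprints. They too were listed with earlier results of these data known, so their calls may not be independent of that choice. Under thapsigargin 27 passed in RNA (18 higher and 9 lower), where 24.6% of all genes passed, and 30 in footprints (16 higher and 14 lower), where 44.4% did. Their median log2 fold changes were 0.33 and −0.04, beside −0.03 and −0.11 for all genes. In quiescence 7 and 7 passed (11.3 and 11.9%, where 15.6 and 21.7% of all genes did). After radiation it was 19 and 20 (30.6 and 33.9%, where 34.9 and 39.8% of all genes did), and after etoposide 20 and 23 (32.3 and 39%, where 34.6 and 34.2% did). In these arrested states against cycling the shares were thus below or near those of all genes. Between irradiated and etoposide cells 30.6 and 30.5% passed, where 22.5 and 21.7% of all genes did. For the senescent mean against quiescence it was 33.9 and 32.2%, where 34.2 and 26.1% did.

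Calcineurin's other subunits were higher under thapsigargin. PPP3R1, the regulatory subunit that binds calcium, rose by 0.92 ± 0.20 in RNA (edgeR adjusted p = 0.004619) and 1.73 ± 0.31 in footprints (edgeR adjusted p = 0.0007094), from 184 to 613 CPM of footprints. PPP3CC, the γ catalytic subunit, rose by 0.76 ± 0.19 (edgeR adjusted p = 0.01214) and 1.42 ± 0.17 (edgeR adjusted p = 2.585e-05). With PPP3CA, 3 of 4 tested subunits rose in RNA, and PPP3R1 and PPP3CC were the 2 of 4 that rose in footprints, where 11.8 and 20.1% of all genes were higher. PPP3R2 had no count in any library.

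Among inhibitors and anchors of calcineurin other than RCAN1, 0 of 8 were higher and 2 lower in RNA under thapsigargin. Of all genes 11.8% were higher and 12.8% lower. AKAP5, an anchoring protein, fell by 0.98 ± 0.33 (edgeR adjusted p = 0.04288) and PPIA, the cyclophilin that carries ciclosporin, fell by 0.76 ± 0.13 (edgeR adjusted p = 0.0009466). In senescence RCAN3 went opposite to RCAN1 and RCAN2. RCAN3 RNA fell by 0.55 ± 0.13 after radiation (edgeR adjusted p = 0.005083) and by 1.07 ± 0.13 after etoposide (edgeR adjusted p = 3.05e-05), and its footprints fell by 0.67 ± 0.19 (edgeR adjusted p = 0.01137) and by 1.07 ± 0.18 (edgeR adjusted p = 0.0005236). Against quiescence it fell by 0.67 ± 0.10 in RNA (edgeR adjusted p = 0.0002212).

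Of the NFAT factors, NFAT5 answers to osmotic stress and lacks the calcineurin docking part of the others. It had more footprints under thapsigargin, by 0.78 ± 0.10 (edgeR adjusted p = 4.247e-05), and after radiation, by 1.02 ± 0.09 (edgeR adjusted p = 1.002e-06). NFAT5 footprints were also called higher in quiescence and after etoposide. Of all genes 20.1% had more footprints under thapsigargin, 17.3% after radiation, 7.11% in quiescence and 16.5% after etoposide. Of the kinases that phosphorylate NFAT, 3 of 7 rose in RNA under thapsigargin, where 11.8% of all genes were higher. In footprints 2 were higher and 1 lower of 7, where 44.4% of all genes were called. DYRK1A rose by 0.68 ± 0.12 in RNA (edgeR adjusted p = 0.001176) and 1.35 ± 0.13 in footprints (edgeR adjusted p = 3.698e-06), DYRK2 by 0.60 ± 0.14 (edgeR adjusted p = 0.007973) and 0.94 ± 0.22 (edgeR adjusted p = 0.003592), and GSK3A in RNA by 1.02 ± 0.30 (edgeR adjusted p = 0.02537). CSNK1A1 footprints fell by 1.20 ± 0.11 (edgeR adjusted p = 2.564e-06).

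In the list of calmodulin and store-operated calcium entry, which refills the store that thapsigargin empties, 1 of 7 genes was called in RNA (24.6% of all genes were) and 5 of 7 in footprints, 1 higher and 4 lower (44.4% of all genes were called and 24.4% were lower). The store sensors STIM1 and STIM2 had fewer footprints, by −1.66 ± 0.47 (edgeR adjusted p = 0.01232) and −1.67 ± 0.62 (edgeR adjusted p = 0.04118), and the channel subunit ORAI2 had more, by 1.57 ± 0.32 (edgeR adjusted p = 0.001463). STIM2 footprints were at 0 and 17.8 CPM in the thapsigargin libraries, so that value rests on replicates that disagree. CALM2 and CALM3 were the others with fewer footprints.

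HDAC5 was the other class IIa deacetylase that was higher under thapsigargin in both layers, by 1.04 ± 0.18 in RNA (edgeR adjusted p = 0.001147) and 2.06 ± 0.18 in footprints (edgeR adjusted p = 1.949e-06), with a TE change of 1.05 ± 0.27 (edgeR adjusted p = 0.007401). HDAC7 rose in RNA by 0.56 ± 0.19 (edgeR adjusted p = 0.04802) and HDAC4 footprints fell by 1.33 ± 0.45 (edgeR adjusted p = 0.02733). Their partners, the MEF2 factors, rose in 3 of 3 tested genes in RNA and in footprints, where 11.8 and 20.1% of all genes were higher. MEF2A rose by 1.38 ± 0.14 in RNA (edgeR adjusted p = 2.045e-05) and 1.85 ± 0.14 in footprints (edgeR adjusted p = 6.143e-07), MEF2D by 1.35 ± 0.40 (edgeR adjusted p = 0.02411) and 0.98 ± 0.17 (edgeR adjusted p = 0.0004506), and MEF2C by 0.94 ± 0.20 (edgeR adjusted p = 0.004272) and 1.07 ± 0.33 (edgeR adjusted p = 0.01708).

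Of the kinases that export class IIa deacetylases, 1 was higher and 3 lower of 14 in RNA under thapsigargin, and 1 higher and 3 lower of 13 in footprints, where 24.6 and 44.4% of all genes were called. CAMK1D fell by 1.17 ± 0.17 in RNA (edgeR adjusted p = 0.0002811) whereas CAMK2D rose by 0.81 ± 0.14 (edgeR adjusted p = 0.001437), and PRKD3 and CAMK2G were the others that fell. CAMK1D RNA rose in each arrested state, for instance by 1.22 ± 0.15 after radiation (edgeR adjusted p = 4.696e-05).

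The relatives of NR4A1 were higher under thapsigargin in both layers. NR4A2 rose by 3.18 ± 0.61 in RNA (edgeR adjusted p = 0.002307) and 3.54 ± 0.58 in footprints (edgeR adjusted p = 0.0003491), and NR4A3 by 3.33 ± 0.60 (edgeR adjusted p = 0.001421) and 4.19 ± 0.60 (edgeR adjusted p = 0.0001202). Together with NR4A1, 3 of 3 were higher in RNA and 2 of 3 in footprints, where 11.8 and 20.1% of all genes were higher. Of other substrates of calcineurin, 2 were higher and 1 lower of 8 in RNA, and 0 higher and 2 lower (CRTC1 and DNM1L) of 7 in footprints, where 24.6 and 44.4% of all genes were called. FOXO1 RNA rose by 3.04 ± 0.59 (edgeR adjusted p = 0.002579), from 0.177 to 1.45 CPM, with 4 counts in each cycling library, close to the floor of 3, and TFEB RNA fell by 1.27 ± 0.35 (edgeR adjusted p = 0.019).

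Genes listed as NFAT targets, most of them known from lymphocytes, split under thapsigargin: 5 of 13 were too low to test, and of the other 8, 3 were higher and 2 lower in RNA and in footprints. Of all genes 11.8% were higher and 12.8% lower in RNA, and 20.1 and 24.4% in footprints. PTGS2, the inducible cyclooxygenase, rose by 3.29 ± 0.64 in RNA (edgeR adjusted p = 0.002586) and the cytokine CXCL8 by 3.29 ± 0.73 (edgeR adjusted p = 0.005631), with IL6 as the third. The adhesion molecule VCAM1 fell by 3.98 ± 0.37 (edgeR adjusted p = 9.194e-06), from 38.6 to 2.47 CPM, and F3 was the other that fell. In etoposide cells 6 of 8 were higher in RNA and 7 of 8 in footprints, where 16.8 and 16.5% of all genes were higher, and there VCAM1 RNA rose by 3.46 ± 0.33 (edgeR adjusted p = 3.081e-06). CXCL8 RNA rose after etoposide by 4.91 ± 0.76 (edgeR adjusted p = 0.0002367). After radiation 4 of 8 were higher in RNA, where 16.1% of all genes were. In RNA 6 of 8 were lower in irradiated than in etoposide cells, where 12.9% of all genes were lower. Quiescent cells also had 3 of 8 higher in RNA and 2 of 8 in footprints, where 5.21 and 7.11% of all genes were higher. The list was not tested as a set.

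**Figure D5:**
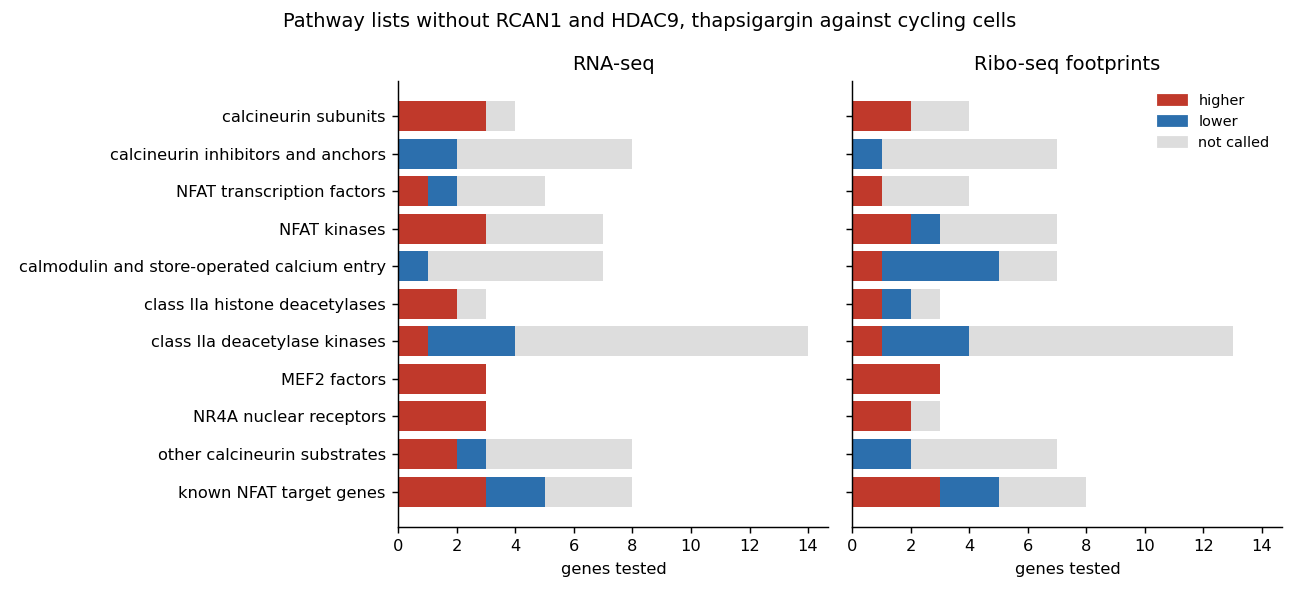
Genes of each pathway list that were higher (red), lower (blue) or not called (grey) under thapsigargin against cycling cells, by RNA-seq (left) and Ribo-seq (right), with RCAN1 and HDAC9 left out. The horizontal axis counts genes tested. The 3 MEF2 factors are higher in both panels, and inhibitors and anchors show no gene that is higher. Of all genes 11.8% were higher in RNA and 20.1% in footprints.

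The genes most like RCAN1 over the 13 RNA-seq libraries, by Pearson's r of log2(CPM + 1), were the kinase DYRK3 (0.987), SMAD7 (0.974), which restrains TGF-β signalling, IDI1 (0.970) of isoprenoid synthesis, SH2D5 (0.965) and KITLG (0.964), the stem cell factor. Without the 2 thapsigargin libraries r was 0.966, 0.896, 0.926, 0.854 and 0.948. For HDAC9 they were ZNF555 (0.978), DDIT3 (0.976), STX3 (0.969), FLCN (0.956) and SYT14 (0.955), with 0.895, 0.888, 0.894, 0.801 and 0.763 without thapsigargin. All these genes share the same libraries and their depth, the r of each of these 10 genes was lower without the 2 thapsigargin libraries, and no p is given.

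Over the 14 Ribo-seq libraries the nearest to RCAN1 were STX3 (0.980), PPP1R15A (0.977), which lets stressed cells resume translation, CDK7 (0.977), SEC23B (0.977) and DUSP14 (0.976). For HDAC9 they were CCDC93 (0.972), FDPS (0.962), MAGI2 (0.960), PICALM (0.958) and VPS4B (0.945). Without the 2 thapsigargin libraries r was 0.812, 0.797, 0.936, 0.854 and 0.828 for the first 5 and 0.902, 0.881, 0.875, 0.855 and 0.854 for the others. DYRK3 and IDI1, near RCAN1 in RNA, were thus not among its nearest 5 in footprints, and STX3 was near HDAC9 in RNA and near RCAN1 in footprints.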

How the data were processed

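RNA-seq and Ribo-seq of IMR90 cells were analysed from the raw counts per gene that the authors deposited for each library. The submitters' processing notes name STAR 2.7.10b, the hg38 build, bcl2fastq and DESeq2 1.36.0. The trimming and the annotation release are not given in the sources used here. Counts on the reverse strand (RNA-seq) and the forward strand (Ribo-seq) were used, and summary lines without a gene were dropped. The gene lists hold 62703 identifiers, or 60664 in 12 Ribo-seq libraries, and the 60534 shared ones were kept, of which 19148 protein coding genes (RefSeq) entered the tests. Footprint comparisons of thapsigargin with other states, and all ratios outside thapsigargin, cross these lists.

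With R 4.3.3 and edgeR 4.0.16, counts were filtered (filterByExpr), scaled by TMM and tested by the quasi-likelihood test over all 5 states, with Benjamini-Hochberg adjustment over all genes of the assay (13220 in RNA, 11683 in footprints, 11636 in TE) and a call at 0.05. TE was the interaction of assay and state. DESeq2 1.42.0 was an alternative. The scripts were tested on simulated data. Floors (3 counts) cover counting error only, and the 95% intervals of log2 values come from the edgeR fit and include the spread between libraries. By replicate number, libraries deviated together (every r over 0.1) for quiescent with cycling footprints (0.187, 0.287 and 0.323). The same held for RNA-seq with Ribo-seq in etoposide cells (0.143, 0.445 and 0.218). In cycling cells RNA-seq with Ribo-seq had only 2 pairs (0.156 and 0.199), which cannot decide whether the numbers pair. No other comparison with 3 or more pairs had every r over 0.1, though quiescent with irradiated footprints missed it narrowly (0.0996, 0.143 and 0.186). The replicate block changed no call in quiescent footprints or in TE. The members and gene lists were chosen with earlier results of these data known. From each pathway list at most 3 called genes with the largest log2 fold change per comparison were given values. Loci, promoters and symbols are from RefSeq (GRCh38.p14). PPP3CA and PPP3CB had no promoter entry. The labels call every thapsigargin library protected fragments in a characteristic, so the assay was read from the titles.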

Additional observations from a re-analysis of the deposited data

Results flagged for a closer look

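The irradiated and the etoposide cells differed in 3 of the genes by a test of the difference itself, with edgeR's quasi-likelihood test. RCAN1 was lower in irradiated cells, with a log2 difference of −0.73 in footprints and −0.72 in RNA. NFATC4 was higher, by 0.64 in footprints and 0.55 in RNA, and NFATC1 RNA was higher by 0.54. Outside the RCAN1 RNA difference, each lost its call without at least 1 library.

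Some counts lay on the strand that was not used, at a higher share than in any cycling library. For PPP3CB RNA the share was 0.516% in irradiated library 1 and 1.11, 0.7 and 0.517% in etoposide libraries 1, 2 and 3. For PPP3CB footprints it was 2.47% in etoposide library 2 and 17.4% in thapsigargin library 2. For RCAN1 RNA it was 0.0642% in thapsigargin library 1, against at most 0.0374% in cycling libraries. Groups of 2 or 3 libraries are too small for a test of single libraries that stand apart.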

How the results depend on the processing

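Of 168 members' results, 124 kept their direction and their side of the threshold, or moved within 1 SE, in every alternative run (another scaling, DESeq2, no low-count filter, all gene biotypes, unstranded counts, the replicate block, only the states compared, and each library left out). A call was lost in at least 1 alternative for 11 and gained for 17, and the cause was not tested. A sign change was counted for 17, where it came with a call or a move of at least 1 SE. For RCAN1 and HDAC9 under thapsigargin any sign change was counted. Smaller sign changes of other uncalled values were not counted, for instance NFATC2 RNA in quiescence (−1.06 to 0.032). RNA calls in quiescence went from 1 to 2 with DESeq2, the replicate block or only the states compared, and RNA calls between irradiated and etoposide cells from 3 to 1 with the replicate block. Outside quiescent with cycling footprints and RNA-seq with Ribo-seq in etoposide cells, comparisons with 3 or more pairs had at least 1 same-number r under 0.1. This cut alone cannot decide whether the numbers pair, since quiescent with irradiated footprints missed it narrowly. With 2 pairs, same-number r was 0.348 and 0.348 for cycling with thapsigargin RNA-seq. It was 0.68 and 0.189 for etoposide with thapsigargin RNA-seq. Deviations of 2 libraries from their mean mirror each other, so these pairs cannot decide whether the numbers pair. Over all states, r was over 0.1 in 10 of 23 RNA-seq pairs with the same number (17 of 44 with different numbers), 7 of 26 Ribo-seq pairs (6 of 52) and 7 of 13 pairs of RNA-seq with Ribo-seq (2 of 24). Footprint calls went from 3 to 5 after etoposide (DESeq2, only the states compared), from 0 to 1 under thapsigargin and from 2 to 4 for senescence against quiescence (both DESeq2), and TE calls under thapsigargin from 1 to 0 (only the states compared). With each library left out in turn, calls ranged from 1 to 2 (RNA, quiescence), 2 to 4 (RNA, thapsigargin), 1 to 3 (RNA, irradiated against etoposide), 3 to 5 (footprints, etoposide), 0 to 2 (footprints, thapsigargin), 1 to 4 (footprints, irradiated against etoposide) and 0 to 2 (TE, thapsigargin). Unstranded counts turned NFATC1 under thapsigargin to −0.27 in footprints and −0.21 in TE. Among the sign changes counted, these uncalled log2 values changed sign with a library left out. In RNA under thapsigargin the range was −0.0095 to 0.46 for RCAN2, −0.19 to 0.35 for NFATC3 and −0.33 to 0.38 for PPP3CB, and after etoposide −0.58 to 0.97 for NR4A1. In footprints it was −2.07 to 0.0013 in quiescence and −0.77 to 1.11 after radiation for NR4A1, and under thapsigargin −0.16 to 0.40 for NFATC1, −0.16 to 0.48 for PPP3CA and −0.28 to 0.27 for PPP3CB. In TE under thapsigargin it was −0.54 to 0.029 for HDAC9, −0.070 to 0.58 for NFATC1, −0.061 to 0.62 for NFATC3, −0.39 to 0.38 for PPP3CB and −1.25 to 0.98 for NR4A1. In other TE comparisons it was −0.16 to 0.29 for NFATC4 after etoposide, −0.49 to 0.027 for RCAN2 in senescence against quiescence and −0.17 to 0.021 for PPP3CA between irradiated and etoposide cells. RCAN1 under thapsigargin ranged from 3.50 to 3.82 in RNA and HDAC9 from 3.94 to 4.41. Footprints under thapsigargin are limited by their depth of 1.937 and 2.045 (1e6 counts). They are also limited by the high share of reads that mapped to several places, 65.18 and 66.93%.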
